A study of Homo sapiens with 6 samples.

Results

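The 10 genes described here encode core parts of the circadian clock: *CLOCK*, *NPAS2*, *PER1*, *PER2*, *PER3*, *CRY1*, *CRY2*, *NR1D1*, *NR1D2* and *DBP*. They were chosen by name from the 61228 gene names of the deposited tables, and each of them was found there. Their RNA was measured by poly(A) RNA sequencing in HBECs, immortalized cells of human bronchial epithelium with the wild-type genotype, after 24 h of treatment. In the CRE group (3 libraries) the cells received cockroach extract (CRE), an allergen mixture. In the CRE + VAF347 group (3 libraries) they received the same extract after VAF347, an agonist of the aryl hydrocarbon receptor (AhR). Cells without CRE and cells with VAF347 alone were not analysed here, so the comparison gives the difference that VAF347 makes in the presence of CRE. All libraries come from 1 time point, so neither phase nor rhythm was measured. No source states whether the libraries of a group came from separate cultures, and p-values therefore measure only the spread between these libraries.

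In the mammalian clock, CLOCK or its paralog NPAS2 pairs with BMAL1 and switches on genes that carry E-box sequences, among them the *PER* and *CRY* genes. The PER and CRY proteins return to the nucleus and inhibit that activator, which closes a loop of about a day, while the nuclear receptors REV-ERBα (*NR1D1*) and REV-ERBβ (*NR1D2*) repress *BMAL1* and the D-box factor DBP drives output genes. CLOCK, NPAS2, BMAL1 and the PER proteins carry PAS domains, as do AhR and its partner ARNT, and airway epithelial cells have a clock of this kind.

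The DNA just upstream of these genes is shown first, because both the clock proteins and AhR act through short sequences there. Each window was read from the RefSeq promoter table (GRCh38.p14, 250 bases before to 50 after an annotated start), in which all 10 genes were matched to 14 promoter entries. Capitals mark letters of a searched motif on either strand: the E-box CACGTG, the E′-box CACGTT, the D-box TTATGTAA or TTACGTAA, the nuclear receptor element core AGGTCA, and the AhR core GCGTG. *NPAS2* and *PER3* are shown because their RNA differed between the groups; the other windows hold the E-box or E′-box of the feedback genes.
NPAS2, chr2:100820039-100820158, plus strand: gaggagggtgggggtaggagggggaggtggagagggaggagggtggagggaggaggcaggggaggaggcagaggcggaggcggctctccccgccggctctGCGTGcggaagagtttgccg
PER3, chr1:7784041-7784290, plus strand: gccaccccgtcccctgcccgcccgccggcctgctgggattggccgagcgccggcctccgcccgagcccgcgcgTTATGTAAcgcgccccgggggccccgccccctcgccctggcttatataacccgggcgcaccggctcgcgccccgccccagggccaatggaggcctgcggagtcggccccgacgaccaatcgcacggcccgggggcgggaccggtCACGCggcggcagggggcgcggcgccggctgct
PER1, chr17:8152552-8152597, minus strand: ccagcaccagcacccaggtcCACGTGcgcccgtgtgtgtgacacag
PER2, chr2:238288790-238288819, minus strand: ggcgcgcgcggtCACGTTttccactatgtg
CRY1, chr12:107093613-107093658, minus strand: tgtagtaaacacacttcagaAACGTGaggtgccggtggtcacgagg
CRY2, chr11:45847275-45847304, plus strand: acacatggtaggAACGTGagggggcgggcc
NR1D1, chr17:40100732-40100777, minus strand: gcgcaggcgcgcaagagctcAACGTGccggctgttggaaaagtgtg
NR1D2, chr3:23945946-23946041, plus strand: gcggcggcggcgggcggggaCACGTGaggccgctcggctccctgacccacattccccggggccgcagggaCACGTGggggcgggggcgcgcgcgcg

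An E-box was found in the promoter windows of 2 of the 10 genes (*PER1* and *NR1D2*), an E′-box in 5, a D-box in 3 (*PER2*, *PER3* and *NR1D2*), the AGGTCA core in 2 and the AhR core in 8. Counted by promoter entry, the E-box was in 2 of 14, the E′-box in 5, the D-box in 3, AGGTCA in 3 and the AhR core in 9. Over all 35116 promoter entries of the same length, the shares of entries were 7.26% for the E-box, 5.34% for the E′-box, 1.01% for the D-box, 13.8% for AGGTCA and 36.5% for GCGTG, and no 2 matches in the clock genes overlapped. *NPAS2* held a single match, an AhR core at position 1, the annotated start base itself. The *PER3* promoter shown held a D-box at position -177 and AhR cores at -33 and 7, of which the last lies beyond the stretch printed, and a further promoter entry of *PER3*, not printed, held AhR cores at -171 and -132. By the GENCODE annotation, the windows of *PER3*, *CRY1* and *NR1D1* lie outside the gene, those of *PER1* and *NR1D2* in an intron of longer transcripts, and those of *NPAS2*, *PER2* and *CRY2* reach into an exon of at least 1 transcript. A match is a run of letters and not a measured binding site.

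Library totals were 9805976 to 10750283 estimated counts with CRE and 8873160 to 9917913 with CRE + VAF347. All 5 AhR target genes examined were higher with VAF347, led by *CYP1A1*, a xenobiotic-metabolizing enzyme, with 5 to 8 counts in the CRE libraries and 412 to 460 in the CRE + VAF347 libraries, and followed by *CYP1B1* and *TIPARP* with log2 fold changes of 3.14 and 2.24. Among 12 epithelial markers, 10 were above 3 counts in every library. The list summed to 4711 to 5674 TPM with CRE and 4652 to 4811 TPM with CRE + VAF347. TPM is the authors' unit, scaled for transcript length and library total. The basal-cell markers *KRT14* and *TP63* were at or below 3 counts. Another basal-cell marker, *KRT5*, had 156 to 169 counts with CRE and 108 to 122 with CRE + VAF347. Of these epithelial markers, *ELF3* and *KRT19* were lower with VAF347, with log2 fold changes of -0.54 (adjusted p = 0.00051) and -0.38 (adjusted p = 0.0266) in edgeR's test. *PTPRC* and *CD3E* of white blood cells, *DCN* and *LUM* of fibroblasts and *PECAM1* of endothelium were also at or below 3 counts. The 6 white blood cell markers summed to 22.4 to 25.5 TPM with CRE and 14.8 to 20.9 TPM with CRE + VAF347. Of these, only *CD68* was above 3 counts in every library, with 149 to 283 counts. The 8 fibroblast markers summed to 22.4 to 25.4 TPM with CRE and 18.5 to 22.7 TPM with CRE + VAF347. Among the 3 of them above 3 counts in every library, *COL1A1* had 342 to 434 counts. *CD68* and *COL1A1* thus had more counts than *NPAS2* (77 to 122 per library). Both sums were far below that of the epithelial markers. *CDH5* and *VWF*, the 2 of 4 endothelial markers above that floor, were both lower with VAF347 (summed list 7.31 to 7.97 TPM with CRE and 3.95 to 4.67 TPM with CRE + VAF347), and the part of these lists in the clock results was not tested. CRE replicate 3 stood apart from CRE replicates 1 and 2 (mean chi-square per gene of 9.33 and 9.04 against 2.47 between those 2), so results are also given without it where a call changes.

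Of the 10 clock genes, 2 changed in the fit to counts. *NPAS2*, an activator, rose 1.58-fold with VAF347, and *PER3*, a member of the inhibitory arm, was 1.67-fold higher with CRE alone than with CRE + VAF347. The other 8 genes did not pass the test. Neither *NPAS2* nor *PER3* passed in fits to TPM, and *NPAS2* also did not pass with an offset for transcript length, as given below. A gene was called at an adjusted p under 0.05 in edgeR's quasi-likelihood test with Benjamini-Hochberg adjustment and a log2 fold change over 0.5 in size, which holds for 2.21% of the 15373 genes tested. By direction the rule took 1 clock gene higher, against 0.501% of all genes, and 1 lower, against 1.71%. Dropping the fold threshold left the clock count at 2, with 5.42% of all genes, and 3 clock genes had an unadjusted p under 0.05, with 20.8% of all genes. The log2 fold changes of the 10 genes were positive in 7 and negative in 3, with a median of 0.03, next to 0.01 over all genes tested. Because whole cultures were sequenced, fewer cells with a transcript and less of it per cell cannot be told apart.

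**Figure D1:**
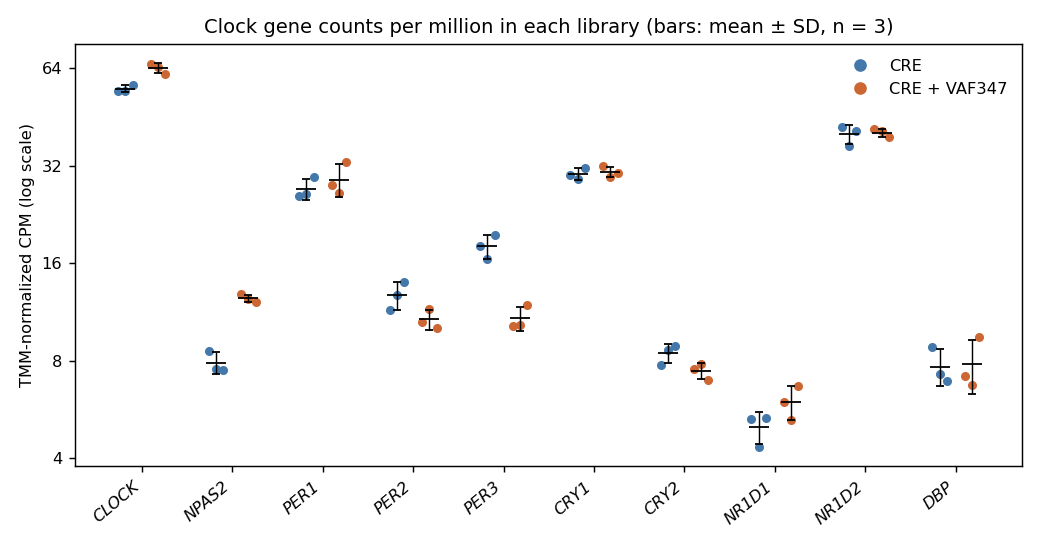
Level of each of the 10 clock genes in CPM (counts scaled to the library total, log axis), with 1 point for each of the 3 CRE and 3 CRE + VAF347 libraries and bars for the group mean ± SD. The groups are apart for *CLOCK*, *NPAS2* and *PER3* and overlap for the other 7 genes.

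*NPAS2* encodes the PAS-domain transcription factor that can replace CLOCK as partner of BMAL1 and lies at chr2:100820139-100996829 on the plus strand (GRCh38, GENCODE, here and for the other genes). Its level, in CPM (counts scaled to the library total after TMM normalization), was 8.59, 7.55 and 7.48 in the CRE libraries (replicates 1 to 3 in this order throughout) against 12.8, 12.4 and 12.2 in the CRE + VAF347 libraries. Every CRE + VAF347 library thus lay above every CRE library, and the gap between the groups was wider than the spread within either. The means were 7.88 ± 0.62 and 12.5 ± 0.32 CPM (SD, n = 3 each), a log2 fold change of 0.66 (SE 0.12, 95% interval 0.40 to 0.92, adjusted p = 0.00847 in edgeR's quasi-likelihood test). These levels rest on 77 to 83 counts per CRE library and 114 to 122 per CRE + VAF347 library.

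On the per-length TPM scale *NPAS2* read 4.48, 2.35 and 2.64 with CRE and 5.33, 6.01 and 3.98 with CRE + VAF347, so the groups overlapped, with CRE replicate 1 above CRE + VAF347 replicate 3. limma on log2(TPM + 1) estimated 0.58 for the log2 fold change (adjusted p = 0.411), and edgeR with an offset for transcript length estimated 0.76 (SE 0.27, adjusted p = 0.236). Over all 16 alternatives the adjusted p of *NPAS2* ran from 0.00033 to 0.648, it was under 0.05 in 12, and the fold change was positive in each.

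*CLOCK* encodes the histone-acetylating activator of the loop (chr4:55427903-55546909, minus strand). It read 54.7, 54.6 and 57.0 CPM with CRE and 66.1, 64.8 and 61.7 CPM with CRE + VAF347, so the groups did not overlap. The log2 fold change of 0.21 (SE 0.06, 95% interval 0.07 to 0.35) missed the threshold, with an adjusted p of 0.0845. Without CRE replicate 3 it was 0.23 with an adjusted p of 0.0373, and over all 16 alternatives the adjusted p ran from 0.0373 to 0.779. *CLOCK*, *NPAS2* and *PER3* were the 3 of 10 clock genes whose CPM did not overlap between the groups, as was the case for 27.3% of all genes. *BMAL1*, the shared partner of CLOCK and NPAS2, read 9.80 ± 0.58 CPM with CRE and 10.2 ± 0.61 CPM with CRE + VAF347, for a log2 fold change of 0.06 (95% interval -0.20 to 0.32, adjusted p = 0.813).

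The *PER* genes encode the PAS-domain repressors of the activator. *PER3* (chr1:7784291-7845177, plus strand) read 18.1, 16.5 and 19.5 CPM in the CRE libraries against 10.2, 10.3 and 11.9 CPM in the CRE + VAF347 libraries. The lowest CRE library was above the highest CRE + VAF347 library. The group means were 18.05 ± 1.53 and 10.8 ± 0.93 CPM (SD, n = 3 each), and *PER3* fell by 0.74 on the log2 scale (SE 0.11, 95% interval -0.99 to -0.49, adjusted p = 0.00422 in edgeR's quasi-likelihood test). The counts behind it were 168 to 209 per CRE library and 91 to 119 per CRE + VAF347 library.

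The groups of *PER3* were also apart in TPM, at 4.70, 5.03 and 6.85 with CRE and 2.68, 3.34 and 3.17 with CRE + VAF347. With the length offset the log2 fold change was -0.80 and the adjusted p 0.0274, whereas limma on log2(TPM + 1) gave -0.67 with an adjusted p of 0.201. The adjusted p ran from 9.0e-07 to 0.448 over the 16 alternatives and was under 0.05 in 13 of them. *UTS2* is annotated on the opposite strand and its span overlaps that of *PER3*. Without strand information in the counting, which no source used here states, reads from any exon sequence shared by both genes could not be told apart. Whether their exons overlap was not checked. The same holds for *NPAS2* with *NPAS2-AS1* and for *CLOCK* with *TMEM165*.

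*PER1* and *PER2* did not pass the test. *PER2* (chr2:238244044-238290102, minus strand) read 11.5, 12.8 and 14.0 CPM with CRE and 10.6, 11.6 and 10.1 CPM with CRE + VAF347, where only the highest CRE + VAF347 library reached into the CRE range. Its log2 fold change was -0.25 (SE 0.12, 95% interval -0.52 to 0.01, adjusted p = 0.266). *PER1* (chr17:8140472-8156506, minus strand) read 27.2 ± 2.05 CPM with CRE and 29.0 ± 3.41 CPM with CRE + VAF347 (SD, n = 3), for a log2 fold change of 0.09 (SE 0.10, 95% interval -0.13 to 0.32, adjusted p = 0.642). Thus the 3 *PER* genes had estimates of different sign and size, although a difference among them was not tested. As a share of the summed TPM of *PER1*, *PER2* and *PER3*, *PER3* took 28.6%, 21.8% and 22.9% with CRE and 12.3%, 21.2% and 12.8% with CRE + VAF347. CRE + VAF347 replicate 2, the library with the lowest *PER1* TPM of its group, came close to the CRE range.

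The cryptochromes, which hold the activator off DNA together with PER, did not pass the test. *CRY1* (chr12:106991364-107093549, minus strand) read 30.2 ± 1.25 CPM with CRE and 30.6 ± 1.16 CPM with CRE + VAF347 (SD, n = 3), for a log2 fold change of 0.02 (SE 0.08) with a 95% interval of -0.15 to 0.19, and limma on log2(TPM + 1) gave -0.12. *CRY2* (chr11:45847118-45883248, plus strand), scarcer than *CRY1* per length, read 7.77, 8.63 and 8.88 CPM with CRE and 7.53, 7.78 and 6.98 CPM with CRE + VAF347. The fit to counts gave -0.18 on the log2 scale (SE 0.13, 95% interval -0.47 to 0.11, adjusted p = 0.469 in edgeR's test). The direction of *CRY2*, like that of *CRY1*, turned with the scale. In TPM it read 2.69, 2.89 and 3.50 with CRE and 4.35, 4.69 and 2.89 with CRE + VAF347, and limma on log2(TPM + 1) gave 0.29 with an adjusted p of 0.673.

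The nuclear receptors that repress *BMAL1* did not pass the test either. *NR1D1* (chr17:40092793-40100589, minus strand) read 5.28, 4.32 and 5.33 CPM with CRE and 5.96, 5.26 and 6.68 CPM with CRE + VAF347, for a log2 fold change of 0.26 (SE 0.17, 95% interval -0.11 to 0.64, adjusted p = 0.414). *NR1D2* (chr3:23945286-23980617, plus strand), about as abundant as *CRY1* per length, read 40.1 ± 2.78 CPM with CRE and 40.5 ± 1.17 CPM with CRE + VAF347, for a log2 fold change of 0.02 (95% interval -0.15 to 0.18), and limma on log2(TPM + 1) gave -0.09. *DBP* (chr19:48630030-48637379, minus strand), the D-box factor driven directly by the activator, read 7.66 ± 1.00 and 7.80 ± 1.47 CPM, a log2 fold change of 0.03 (SE 0.17) with an interval of -0.34 to 0.40. The intervals of *NR1D1* and *DBP*, the widest of the 10, cover a range about as broad as the whole change of *NPAS2*. *NR1D1* shares its locus with *THRA*, *NR1D2* with *NKIRAS1* and *DBP* with *SPHK2*, each annotated on the opposite strand.

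**Figure D2:**
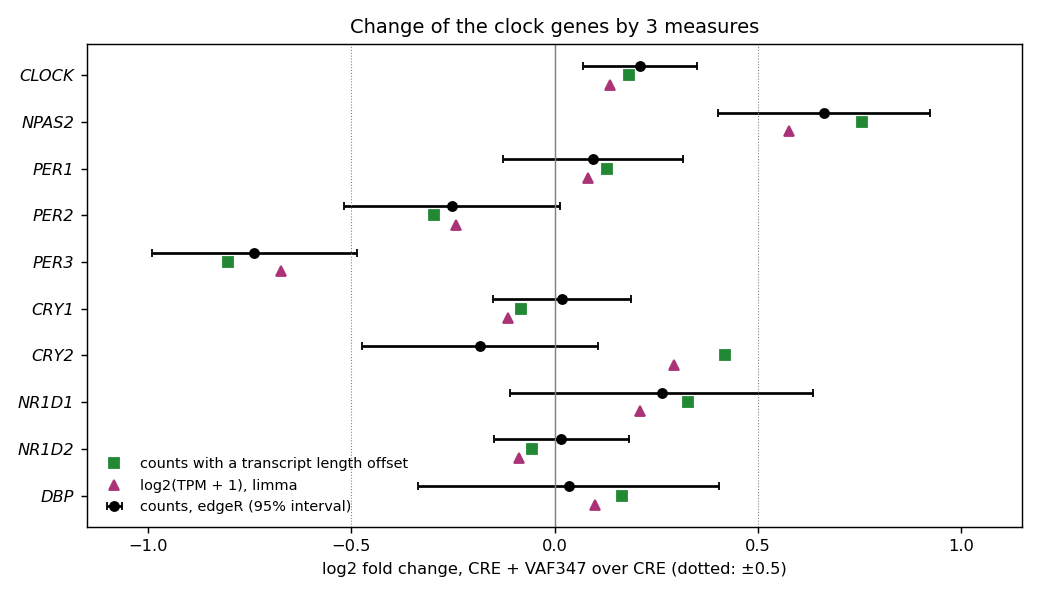
Log2 fold change of each clock gene, CRE + VAF347 over CRE (0 is no difference), with bars for the 95% interval of the fit to counts and further marks for the fit to TPM and the fit with a length offset. *NPAS2* (0.66) and *PER3* (-0.74) lie farthest from 0 in the fit to counts, and the marks of *CRY1*, *CRY2* and *NR1D2* lie on both sides of 0.

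In order of TPM, which allows genes to be compared per length, *CRY1* stood first in the CRE group with 22.1 ± 2.35 TPM, followed by *NR1D2* (20.9 ± 3.03), *CLOCK* (16.8 ± 1.20) and *PER1* (14.7 ± 5.42). A lower tier ran from *PER3* (5.53 ± 1.16) through *DBP* (4.46 ± 0.55), *NPAS2* (3.16 ± 1.16), *CRY2* (3.02 ± 0.42) and *PER2* (2.94 ± 0.35) to *NR1D1* (2.60 ± 0.37). Between neighbours in this order, the ranges over the 3 libraries were apart only from *NR1D2* to *CLOCK* and from *PER1* to *PER3*. With CRE + VAF347 the upper tier held the same order, from *CRY1* (20.2 ± 0.81 TPM) to *PER1* (15.4 ± 4.90 TPM). *NPAS2* then came next with 5.11 ± 1.04 TPM and *PER3* next to last with 3.07 ± 0.34 TPM, above *PER2* with 2.32 ± 0.14 TPM. Neighbours were apart there only from *PER1* to *NPAS2* and from *PER3* to *PER2*. Of the summed TPM of the paralogs *CLOCK* and *NPAS2*, *NPAS2* made up 22.3%, 12.1% and 12.8% with CRE and 23.5%, 23.8% and 17.2% with CRE + VAF347, and these ranges overlapped.

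**Figure D3:**
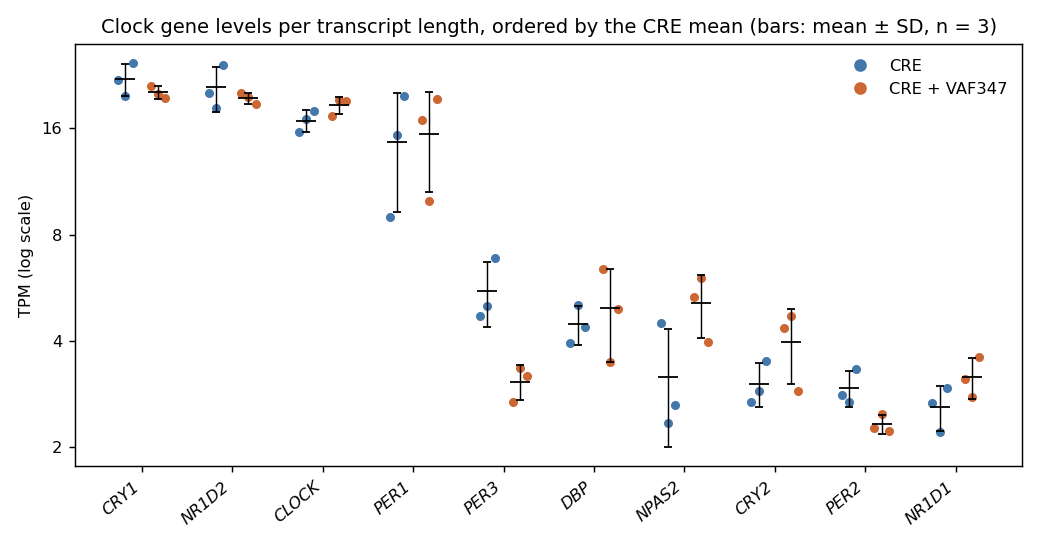
TPM of each clock gene on a log axis, 1 point per library and bars for the group mean ± SD, with genes ordered by their mean in the CRE group. A tier of *CRY1*, *NR1D2*, *CLOCK* and *PER1* lies above the other 6 genes in both groups, and *PER3* lies above *NPAS2* with CRE (5.53 and 3.16 TPM) and below it with CRE + VAF347 (3.07 and 5.11 TPM).

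The count of a gene divided by its TPM follows the effective length of the transcripts to which reads were assigned, up to a factor of each library, and was compared after scaling to the median gene. Over the 11973 genes with enough counts, the highest library exceeded the lowest by a median of 1.13-fold. The ratio reached 1.94-fold for *DBP*, 1.78-fold for *CRY2* and 1.72-fold for both *NPAS2* and *PER1*, a range that 1.33% to 2.92% of genes surpassed. For *NPAS2* it was 18.01, 30.7 and 31.0 with CRE and 23.2, 19.9 and 29.9 with CRE + VAF347, with high and low libraries in both groups. *PER1* likewise split across the groups, with 27.2 in CRE replicate 1 and 25.4 in CRE + VAF347 replicate 2 and 15.9 to 16.6 in the other 4 libraries.

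For *CRY2* the counts per TPM were 27.2, 28.4 and 27.7 with CRE and 16.7, 15.95 and 23.7 with CRE + VAF347, so that every CRE + VAF347 library was lower, by 33.6% in the geometric mean. Counts per TPM did not overlap between the groups in 17.9% of genes and in 4 of the 10 clock genes, lower with VAF347 in *CRY2* and *NR1D1* and higher in *CRY1* and *NR1D2*. A log2 difference over 0.5 in size was seen in 0.426%. That of *CRY2* was -0.59, and 15 of the 11973 genes compared had a value this low or lower. *CRY2* has 12 annotated transcripts, and the tables give no value for single transcripts. *NR1D1*, with 1 annotated transcript, read 18.7 to 19.8 with CRE and 18.1 to 18.3 with CRE + VAF347, while *PER3* overlapped between the groups (31.1 to 36.3 with CRE and 29.7 to 36.8 with CRE + VAF347).

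**Figure D4:**
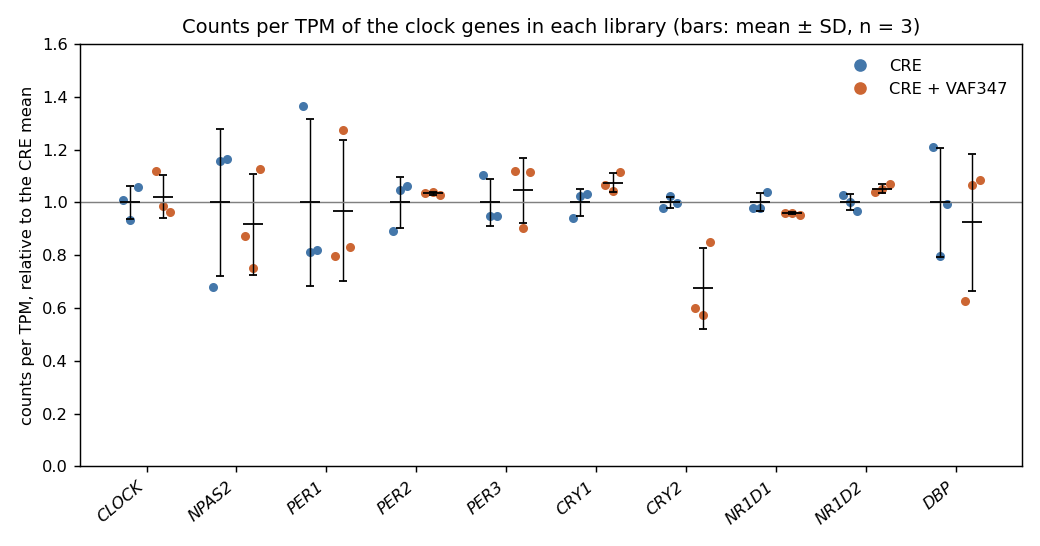
Counts per TPM of each clock gene, relative to its mean in the CRE group (linear axis from 0), with 1 point per library and bars for the group mean ± SD. *CRY2* shows all CRE + VAF347 libraries below the CRE libraries, while *NPAS2*, *PER1* and *DBP* spread widely within each group.

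Other factors of the clock were read from the same fit. Of 11 such genes examined, 7 had enough counts for the test and 0 were called at the fold threshold in edgeR's test, 0 in DESeq2, while 3 had an unadjusted p under 0.05 (2.21% and 20.8% of all genes tested). *NFIL3*, which competes with DBP at D-boxes, fell from 24.9 ± 1.6 to 18.7 ± 1.30 CPM (SD, n = 3), a log2 fold change of -0.42 (SE 0.09, adjusted p = 0.0261), and its adjusted p ran from 0.0041 to 0.389 over the alternatives, under 0.05 in 6 of 16. The 4 untested genes were *RORB*, *BHLHE41*, *HLF* and *CIART*: *HLF*, a relative of *DBP*, had 0 counts in every library, where 3 counts correspond to 0.280 to 0.337 CPM, and *CIART* had 3 to 10. Among 24 genes for kinases, phosphatases, ubiquitin ligases and cofactors of clock proteins, 23 were tested and 0 passed in edgeR's test at any fold change (5.42% of all genes), 0 in DESeq2 at the fold threshold, and 5 had an unadjusted p under 0.05 (20.8% of all genes).

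Of 14 genes known as clock outputs, all were tested, and 2 fell at the fold threshold and 0 rose in edgeR's test (1.71% and 0.501% of all genes), while DESeq2 called 1 and 5 had an unadjusted p under 0.05 (20.8% of all genes). *NOCT*, encoding the clock-controlled phosphatase nocturnin, fell by 0.66 on the log2 scale (SE 0.10, adjusted p = 0.00395), from 22.1 ± 1.31 to 14.0 ± 1.12 CPM, and *KLF11*, a Krüppel-like repressor, fell by 0.58 (SE 0.14, adjusted p = 0.0329). *LPIN1*, a phosphatidate phosphatase, was lower below that fold threshold, with a log2 fold change of -0.43 (SE 0.10, adjusted p = 0.0351). *NOCT* had an adjusted p under 0.05 in 13 of the 16 alternatives, whereas *KLF11* had one in 7 and *LPIN1* in 8. The other 11 outputs did not pass in edgeR's test, among them *WEE1* and *NAMPT* with log2 fold changes of 0.04 and -0.0013. Estimates over 0.5 in size that did not pass were those of *PDK4* (0.67, SE 0.28, adjusted p = 0.194) and *TSC22D3* (-0.58, SE 0.20, adjusted p = 0.123). The median over the list was -0.03, next to 0.01 over all genes.

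Among 16 PAS-domain genes outside the clock, 10 were tested, and at the fold threshold 1 was called higher (0.501% of all genes) and 0 lower (1.71%). An unadjusted p under 0.05 in edgeR's test was seen in 4 of the 10 (20.8% of all genes). *AHRR*, the AhR repressor and itself an AhR target, rose from 5.34 ± 1.34 to 24.0 ± 2.24 CPM, a log2 fold change of 2.16 (SE 0.16). *EPAS1*, encoding HIF-2α, fell by 0.36 (SE 0.06, adjusted p = 0.00617), below the fold threshold, and *AHR* itself read 44.1 ± 3.26 and 46.6 ± 1.13 CPM, a log2 fold change of 0.08 (adjusted p = 0.580). The median of the list was 0.05. *NPAS2* and *AHRR* were thus the PAS-domain genes called higher in the fit to counts among those tested here, clock genes included. *NPAS2* did not pass in the fits to TPM or with the length offset.

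**Figure D5:**
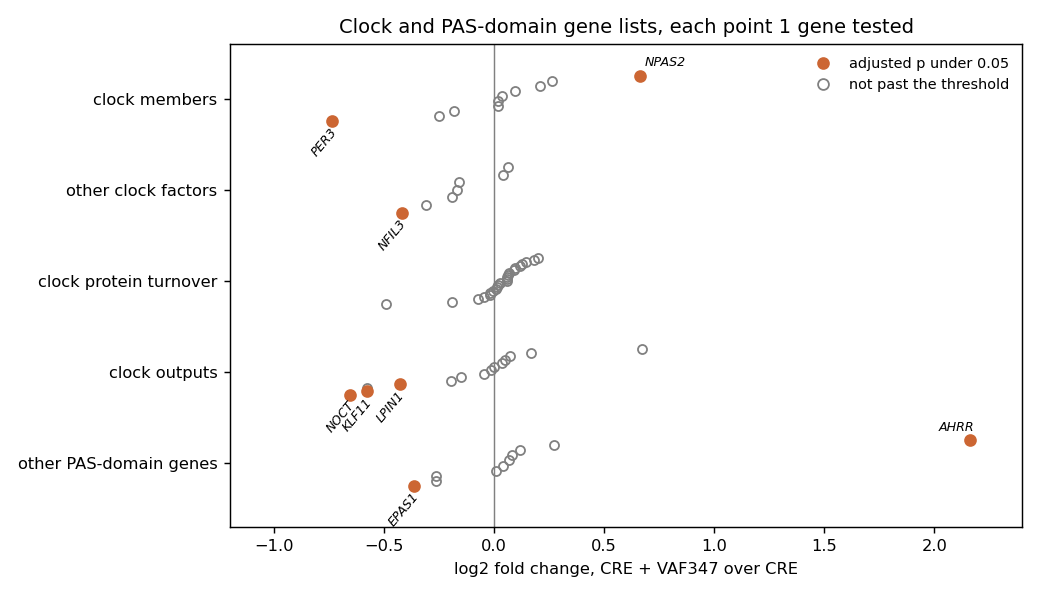
Log2 fold change, CRE + VAF347 over CRE, of every tested gene of the 10 clock genes and 4 related lists, with 1 point per gene and filled points for an adjusted p under 0.05 in edgeR's quasi-likelihood test. Most points lie near 0, with *PER3* (-0.74) at the left and *AHRR* (2.16) at the right.

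The genes whose log2 CPM followed *NPAS2* most closely over the 6 libraries, among 11012 genes compared, were *PIK3R1* (Pearson r = 0.998), *GDA* (0.997) and *PHLDA1* (0.997). For *PER3* they were *CCDC88C* (0.995), *FBLIM1* (0.993) and *RHOBTB2* (0.993). These coefficients, taken after TMM normalization, describe a shared pattern that includes the group difference, and carry no test.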

How the data were processed

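Poly(A) RNA of 6 HBEC libraries was sequenced in pairs of reads and quantified by the authors with Salmon against hg38. The Salmon version, the annotation release and any use of strand are not given in the sources used here. The deposited tables hold estimated counts and TPM per gene, both made by the authors. A deposited table of the authors' DESeq2 results (fold changes and p-values, contrast not named) was not used. All columns of per-sample values were mapped to a library by the column name in its sample description. The sample title gave the group and replicate.

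Estimated counts were rounded before testing, which altered 14.5% of values (those further than 1e-06 from an integer). Genes passing filterByExpr (15373) were scaled by TMM and tested in edgeR 4.0.16 with the quasi-likelihood F test (two-sided, Benjamini-Hochberg over all genes tested, R 4.3.3). The scripts were tested on simulated data. Alternatives used DESeq2 1.42.0, limma 3.58.1 on log2(TPM + 1), other filters and scalings, a replicate block, a GC offset, each library left out, and a transcript length offset, which was chosen after seeing the data. A fold change in TPM is on the log2(value + pseudocount) scale and understates the change of low genes. Counts per TPM were compared for genes with a mean of at least 50 counts. Intervals cover 95%. An exact permutation test of 3 against 3 libraries cannot go below p = 0.1 and was not used. A count of 0 allows up to 3 counts, and this floor covers counting error only.

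All 61228 gene names were found in GENCODE release 44 (GRCh38). The named genes were the 10 clock genes, every gene of the other clock and PAS lists with an adjusted p under 0.05, *BMAL1*, *AHR*, 4 AhR targets as a check of the agonist, and, for each clock gene passing the test, the 3 genes with the highest Pearson r. *WEE1*, *NAMPT*, *PDK4*, *TSC22D3* and the untested list members fall outside this rule and were named after their values were seen. The cell type markers named also fall outside it. *UTS2*, *NPAS2-AS1*, *TMEM165*, *THRA*, *NKIRAS1* and *SPHK2* were named for their position. Some genes of the lists are not reported here. The clock genes and the lists were chosen with earlier results of these data known.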

Additional observations from a re-analysis of the deposited data

How the results depend on the processing

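The 340 genes called became 598 with no filter on low counts, 218 with the transcript length offset (64 higher and 154 lower, against 77 and 263), 84 with limma on log2(TPM + 1) (34 higher and 50 lower), 84 with log2(TPM + 0.1), 32 with log2(TPM + 1) and no filter (20 higher and 12 lower), 833 without the fold threshold, and 201 to 380 with a library left out (201 without CRE + VAF347 replicate 3). Of the 2 clock genes called, 0 remained with each of the 3 limma fits and 1, *PER3*, with the length offset, while every fit with a library left out called 2. Other clock factors went from 0 called to 1 without the fold threshold, and clock protein turnover genes from 0 to 0 to 1 with a library left out (1 without CRE + VAF347 replicate 3). Clock outputs went from 2 to 0 in each of the 3 limma fits, 1 with DESeq2, 1 with the length offset, 3 without the fold threshold and 1 to 2 with a library left out (1 without CRE replicate 1, CRE + VAF347 replicate 2 or CRE + VAF347 replicate 3). PAS-domain genes went from 1 to 0 with log2(TPM + 1) and no filter and to 2 without the fold threshold. With a library left out, *NFIL3*, *KLF11* and *LPIN1* had an adjusted p of up to 0.119, 0.111 and 0.147, and DESeq2 gave 0.112 for *NFIL3* and 0.0593 for *KLF11*. The cause of these changes was not tested.

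Signs turned only for genes that did not pass the test. *PER1* ran from -0.013 (without CRE + VAF347 replicate 3) to 0.16 with a library left out. *CRY1* was -0.12 in both filtered TPM fits, -0.018 with the GC offset and -0.083 with the length offset, and ran from -0.020 (without CRE + VAF347 replicate 1; also negative without CRE replicate 2) to 0.052 with a library left out. *CRY2* was 0.29, 0.29 and 0.36 in the TPM fits and 0.42 with the length offset. *NR1D2* was -0.088 with log2(TPM + 1), filtered or not, -0.091 with log2(TPM + 0.1), -0.059 with the GC offset and -0.056 with the length offset, and ran from -0.039 (without CRE replicate 2; also negative without CRE + VAF347 replicate 1) to 0.054. *DBP* ran from -0.14 (without CRE + VAF347 replicate 3; also negative without CRE replicate 2 or 3) to 0.14. *BMAL1* was -0.11, -0.11 and -0.12 in the TPM fits and -0.10 with the length offset, and *AHR* was -0.0090 with the GC offset. Of the clock genes' values, 130 kept their direction and side of the threshold, 7 were no longer past it, 1 was newly past it and 22 turned.

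No source used here states whether equal replicate numbers pair the libraries. Deviations from the group means correlated at r = 0.071, 0.104 and 0.046 for equal numbers and at -0.052 to -0.015 for unequal numbers. Every library thus correlated best with its own number, but the coefficients are small. Deviations from a group mean cancel out within the group, so values for equal and unequal numbers are not independent. They cannot settle whether the libraries were paired. With the replicate block, 319 genes were called in all (78 higher and 241 lower) and 2 clock genes, and *NFIL3* had an adjusted p of 0.0516.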
